A study of Homo sapiens with 6 samples.

Results

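The regions described here were the promoters of long noncoding RNA (lncRNA) genes that start away from any protein-coding promoter. They were the lncRNA genes of GENCODE release 44 on chromosomes 1 to 22 and X whose gene start lay farther than 5 kb from every transcription start site (TSS) of a protein-coding transcript, and each region ran 1 kb to either side of the gene start. The rule selected 13459 of 18756 lncRNA genes, out of 62062 annotated genes of all types. The gene start is the outermost start annotated for the gene, so other transcripts of the same gene can begin outside the region. The 13459 regions formed 12831 separate stretches of genome, because 1214 of them overlapped the region of another selected gene. Of the genes, 9744 carried only an Ensembl identifier and 3715 carried a symbol. Each region was scored by E2F1 peak summits and by overlap with H3K27me3 peaks in MDA-MB-231, an established line of triple-negative breast cancer cells. The E2F1 libraries, made by chromatin immunoprecipitation and sequencing (ChIP-seq), came from untreated cells and from cells exposed for 72 h to DMSO alone or to 1 µM of the EZH2 inhibitor GSK126. The H3K27me3 libraries came from cells that received a control hairpin (control shRNA) or one targeting E2F1 (shE2F1) by lentivirus for 24 h, followed by 72 h in puromycin at 2 µg/ml. Every condition was 1 library of 1 cell line, so no value has a replicate error, intervals cover counting error only, and no test between conditions was possible. The peak lists do not measure how much E2F1 remained after the knockdown.

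LncRNAs are long transcripts with no annotated protein product. Some act in the nucleus as scaffolds or regulators of nearby genes, and others mainly carry microRNAs or small nucleolar RNAs (snoRNAs) that are cut out of them. E2F1 is a transcription factor that binds DNA with a DP partner and drives genes of DNA replication and the cell cycle. It prefers promoters that are rich in G, C and the dinucleotide CpG, and a familiar form of its site reads TTCCCGC or TTCGCGC or TTGCCGC or TTGGCGC. EZH2 is the catalytic subunit of Polycomb repressive complex 2, which places the repressive mark H3K27me3 on promoters.

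Each sequence printed here is the hg38 plus strand from 50 bp before to 50 bp after the strongest GSK126 summit of the promoter. The first 5 are named promoters with strong E2F1 peaks in all 3 lists, LINC02846 had a strong peak listed in GSK126 cells only, and the last 2 had E2F1 in DMSO and GSK126 cells and H3K27me3 in shE2F1 cells only. Capitals mark a match to any of the 4 motif words given above, searched on both strands.
LINC01775: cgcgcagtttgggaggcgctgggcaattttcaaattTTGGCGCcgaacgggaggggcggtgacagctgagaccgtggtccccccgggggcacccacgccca
MIR924HG: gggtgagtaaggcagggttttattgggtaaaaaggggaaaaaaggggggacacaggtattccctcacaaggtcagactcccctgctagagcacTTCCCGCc
DLEU1: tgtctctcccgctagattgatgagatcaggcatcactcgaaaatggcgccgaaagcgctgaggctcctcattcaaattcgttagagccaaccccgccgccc
LINC00466: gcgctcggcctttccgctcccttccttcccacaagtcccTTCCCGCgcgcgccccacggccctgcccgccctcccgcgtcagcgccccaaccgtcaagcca
MIRLET7IHG: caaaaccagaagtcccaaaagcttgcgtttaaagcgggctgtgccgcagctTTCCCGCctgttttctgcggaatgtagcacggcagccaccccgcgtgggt
LINC02846: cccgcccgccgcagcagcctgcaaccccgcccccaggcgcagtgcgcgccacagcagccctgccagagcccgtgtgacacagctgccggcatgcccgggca
MIR210HG: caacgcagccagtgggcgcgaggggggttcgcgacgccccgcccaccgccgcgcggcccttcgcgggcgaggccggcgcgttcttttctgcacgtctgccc
LINC01962: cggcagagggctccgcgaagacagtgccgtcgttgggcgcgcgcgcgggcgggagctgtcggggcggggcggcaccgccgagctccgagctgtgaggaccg
The windows lie at chr19:2462235-2462335 for LINC01775, chr18:39800190-39800290 for MIR924HG, chr13:50081945-50082045 for DLEU1, chr1:63317243-63317343 for LINC00466, chr12:62602355-62602455 for MIRLET7IHG, chr9:136109738-136109838 for LINC02846, chr11:568533-568633 for MIR210HG and chr5:181191926-181192026 for LINC01962. A motif word was present in 4 of the first 5 windows, DLEU1 being the exception, and in none of the last 3. Over all lncRNA promoters of the set, 3.24% held a motif word within 100 bp of the gene start (95% exact Clopper-Pearson interval 2.95 to 3.55), against 6.35% of all gene starts and 11.6% of protein-coding starts. A match is a string of letters and not a measured binding site.

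The E2F1 lists held 1056 peaks in untreated, 15703 in DMSO and 14276 in GSK126 cells. The lowest local background behind any peak, solved from the fold and p-value of each peak, was 0.668 fragments in untreated, 1.82 in DMSO and 1.70 in GSK126 cells. This value was lowest in the untreated library, but the total number of fragments in each library is unknown. The H3K27me3 lists held 123957 peaks in control shRNA cells and 135683 in shE2F1 cells, covering 143 and 179 Mb, and their depth is unknown.

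E2F1 was found at few of these lncRNA promoters. An E2F1 summit lay in 32 of 13459 promoters in untreated cells, which is 0.238% (0.163 to 0.335), against 2.13% of all gene starts. In DMSO cells 361 promoters held a summit, which is 2.68% (2.42 to 2.97), against 12.6% of all gene starts. In GSK126 cells the number was 532, which is 3.95% (3.63 to 4.30), against 19.4% of all gene starts. The set thus had a lower share of E2F1-bound promoters than the annotation as a whole in each of the 3 libraries. Protein-coding genes had a summit at 5.09%, 28.4% and 44.3% of their starts in the same order. The difference between protein-coding and lncRNA promoters was 4.86 points in untreated (4.54 to 5.18, Newcombe interval), 25.7 points in DMSO (25.01 to 26.4) and 40.3 points in GSK126 cells (39.6 to 41.1). LncRNA genes that start within 5 kb of a protein-coding TSS had shares near those of protein-coding genes, with 4.02%, 27.1% and 41.4%.

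The lncRNA promoters nevertheless held more E2F1 than the sequence around them. Windows of the same length placed 10 kb to either side, and farther than 5 kb from any annotated TSS, numbered 17756, and 2 of them held a summit in untreated cells, 123 in DMSO cells and 51 in GSK126 cells. These were 0.0113%, 0.693% and 0.287% of the windows. The promoters exceeded the windows by 0.227 points in untreated (0.151 to 0.325), 1.99 points in DMSO (1.70 to 2.30) and 3.67 points in GSK126 cells (3.34 to 4.015). In all, 631 promoters held a summit in at least 1 list, in 538 separate stretches, and these 4.69% compare with 20.1% of all gene starts.

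**Figure D1:**
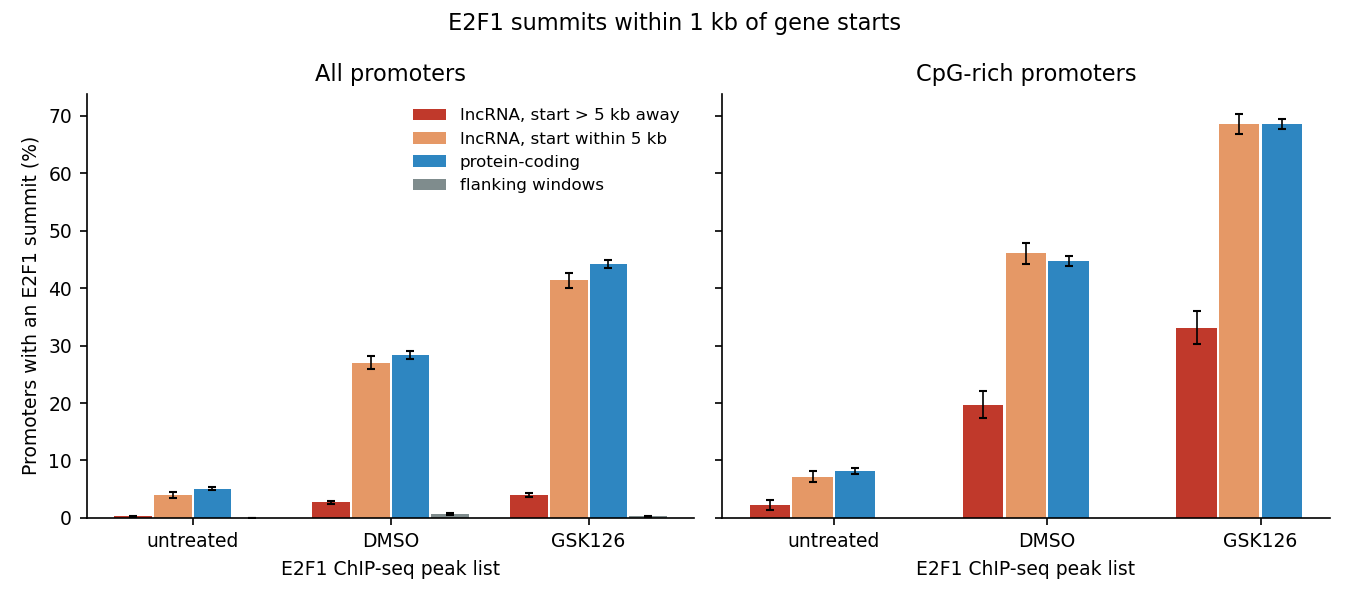
The share of promoters (y axis, %) with an E2F1 summit within 1 kb of the gene start in each of the 3 E2F1 peak lists (x axis), for all promoters (left) and for CpG-rich promoters (right), with bars for each gene class and 95% exact intervals of counting error. LncRNA genes starting farther than 5 kb from a protein-coding TSS reached 3.95% in GSK126 cells over all promoters and 33.1% over CpG-rich ones, below the other classes of genes in every list.

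E2F1 was more frequent at CpG-rich lncRNA promoters. A promoter was called CpG-rich when the 500 bp to either side of its start had a GC content of at least 50% and a ratio of observed to expected CpG of at least 0.6. By this measure 1115 of the 13459 lncRNA promoters (8.28%) were CpG-rich, against 52.8% of the lncRNA promoters within 5 kb and 58.0% of protein-coding promoters. An E2F1 summit in any list lay at 382 of the 1115 CpG-rich lncRNA promoters (34.3%, 31.5 to 37.1) and at 249 of the 12344 CpG-poor ones (2.02%, 1.78 to 2.28). Over all gene starts it lay at 10738 of 16857 CpG-rich and 1735 of 45205 CpG-poor ones. Among CpG-rich promoters alone the lncRNA genes still had fewer E2F1 summits than protein-coding genes, with 2.15% against 8.09% in untreated, 19.6% against 44.7% in DMSO and 33.1% against 68.6% in GSK126 cells. That gap was 5.93 points (4.80 to 6.80), 25.1 points (22.5 to 27.5) and 35.55 points (32.6 to 38.4). Protein-coding shares were 21.4, 10.6 and 11.2 times the lncRNA shares over all promoters, and 3.76, 2.28 and 2.07 times over the CpG-rich ones.

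The 5 kb limit did not coincide with a step in E2F1 occupancy. Among all lncRNA genes, the GSK126 share was 58.8% for starts within 1 kb of a protein-coding TSS, 9.44% at 1 to 3 kb and 6.13% at 3 to 5 kb, just outside the set. Just inside it, the share was 5.31% at 5 to 7 kb (3.68 to 7.37) and 6.25% at 7 to 9 kb (4.34 to 8.67). CpG-rich promoters made up 73.4%, 15.9%, 9.97%, 10.3% and 10.2% of the same 5 groups. Farther out, the share of lncRNA promoters with a GSK126 summit was 5.31% at 10 to 50 kb, 3.50% at 50 to 200 kb and 1.28% beyond 200 kb, where 4.65% were CpG-rich. Beyond 200 kb the DMSO list gave 1.95%, above the GSK126 list.

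Where the lncRNA gene started relative to protein-coding genes also went with E2F1. Of the 9444 promoters outside protein-coding genes 549 were bound in any list (5.81%, 5.35 to 6.30), against 59 of 2838 inside a gene on the opposite strand (2.08%, 1.59 to 2.67) and 23 of 1177 inside a gene on its own strand (1.95%, 1.24 to 2.92). Over all gene starts the bound share was 20.1%. CpG-rich promoters were 10.4%, 3.35% and 3.31% of the 3 groups of lncRNA promoters. Promoters that shared their region with another selected lncRNA were bound in 194 of 1214 cases (16.0%), against 437 of 12245 (3.57%) for the others, and were CpG-rich in 28.6% against 6.27%. A summit in overlapping regions was counted for each promoter that held it. By chromosome the bound share ran from 1.79% (5 of 279) on chromosome 21 to 8.31% (52 of 626) on chromosome 7. The share over all gene starts was not computed by chromosome.

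Among the classes of gene names, snoRNA host genes had the highest bound share. The introns of snoRNA host genes carry the RNAs that guide ribosomal RNA modification. Among 20 such genes, 11 held E2F1 in GSK126 cells and 6 in DMSO cells, and none in untreated cells. Over all gene starts the shares were 19.4%, 12.6% and 2.13%. The interval of the GSK126 share of the 20 ran from 31.5% to 76.9%, and 16 of the 20 promoters were CpG-rich. Over all CpG-rich gene starts the share was 62.7% in GSK126 and 41.0% in DMSO cells. Fold is the authors' enrichment of fragments at the summit over the local background, and −log10 q is the authors' significance of the peak within its library. The strongest were SNHG32, with folds of 17.8 in DMSO and 34.9 in GSK126 cells, SNHG17, with 17.2 and 30.9, and SNHG5, with 8.83 and 20.9. The SNHG17 summits lay 55 and 50 bp downstream of its start. Among 69 microRNA host genes, 12 were bound in any list (17.4%, 9.32 to 28.4), against 20.1% of all gene starts, and 17 were CpG-rich. LINC genes, the numbered intergenic lncRNAs, were bound at 109 of 2118 promoters (5.15%), antisense lncRNAs at 40 of 807 (4.96%) and genes with no symbol at 381 of 9744 (3.91%, 3.53 to 4.31). Of 116 genes named as intronic or overlapping transcripts, 3 were bound.

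A summit in all 3 E2F1 lists was found at 26 lncRNA promoters (0.193%), against 2.04% of all gene starts, and 13 of these 26 had no symbol. LINC01775, an intergenic transcript 5.2 kb from the promoter of the lamin gene LMNB2, had the highest GSK126 fold, with 13.1 in untreated, 21.4 in DMSO and 51.5 in GSK126 cells. Its DMSO summit lay 880 bp upstream of the start and the other 2 lay 99 and 100 bp upstream. MIR924HG, the host of miR-924, had folds of 11.1, 26.8 and 43.5. Its promoter was CpG-poor and its start lay 2154.9 kb from the nearest protein-coding TSS. The 3 summits of MIR924HG fell in its own exon, between 75 and 216 bp downstream of the start. DLEU1, a gene of the region deleted in lymphocytic leukaemia, had folds of 5.90, 19.75 and 41.3, with summits 148 to 174 bp upstream in an exon of the antisense gene DLEU2. LINC00466, which starts 5.3 kb from FOXD3, had folds of 6.56, 18.75 and 26.6.

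MALAT1, an abundant lncRNA of nuclear speckles, held E2F1 in each of the 3 lists. Its folds were 10.7 in untreated, 10.1 in DMSO and 19.6 in GSK126 cells, from 23, 65 and 109 fragments at the summit, and the summits lay 98, 62 and 67 bp upstream of the start. MIRLET7IHG, the host of the tumour-suppressive microRNA let-7i, had folds of 11.99, 11.1 and 21.4, with summits 347 to 361 bp upstream in an exon of LINC01465, whose region it shares. HM13-AS1, antisense to the signal peptide peptidase gene HM13, had 7.39, 13.7 and 24.1, LINC02960 had 5.94, 14.9 and 22.9, and PIWIL4-AS1 had 8.68, 10.5 and 16.4. The GSK126 fold was the highest of the 3 at all 9 promoters named here. These 9 were chosen for their folds, so that order is a description. A motif word lay within 100 bp of the GSK126 summit at 7 of the 9, DLEU1 and PIWIL4-AS1 lacking it.

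**Figure D2:**
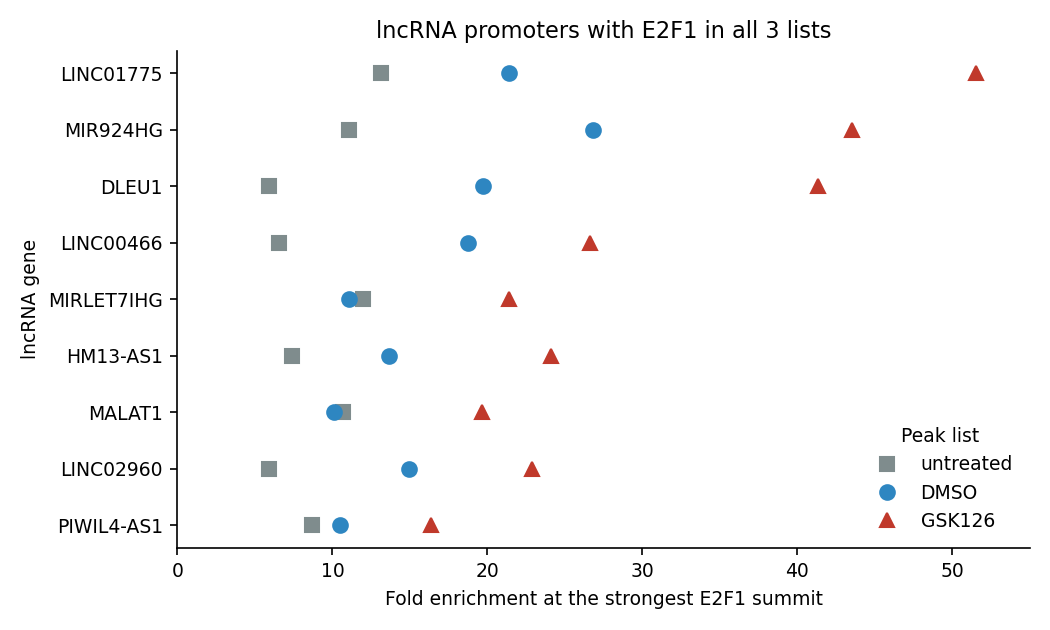
The authors' fold enrichment at the strongest E2F1 summit (x axis) of 9 named lncRNA promoters (y axis) with a summit in all 3 lists, chosen by the geometric mean of fold; squares are untreated, circles DMSO and triangles GSK126 cells, 1 library each. GSK126 values run from 16.4 at PIWIL4-AS1 to 51.5 at LINC01775.

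Taken over all bound lncRNA promoters together, the peaks were weaker than at protein-coding genes in DMSO and GSK126 cells. Counting each peak a single time, the median fold was 4.81 in DMSO cells (313 peaks, 4.62 to 5.10, range 2.43 to 26.8) against 5.88 at protein-coding promoters (5.79 to 5.999). In GSK126 cells it was 6.67 (457 peaks, 6.29 to 7.20) against 7.43 (7.32 to 7.57). In untreated cells the medians were 7.87 (29 peaks, 6.30 to 9.79) and 8.22 (7.84 to 8.41), whose intervals overlap. The median number of fragments at a summit was 16 in untreated, 22 in DMSO and 32 in GSK126 cells. Summits gathered around the lncRNA gene start. The strongest summit lay within 200 bp of it at 22 of 32 promoters in untreated, 168 of 361 in DMSO (46.5%) and 263 of 532 in GSK126 cells (49.4%). At protein-coding promoters that share was 56.9% in untreated, 52.85% in DMSO and 55.2% in GSK126 cells. The median signed distance was 5 bp downstream in DMSO (-28 to 37) and 1 bp upstream in GSK126 cells (-28 to 26). Because the region is symmetric about the start, evenly scattered summits would also give a median near it.

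An E2F motif word lay within 100 bp of 14 of 29 lncRNA promoter summits in untreated cells (48.3%, 29.45 to 67.5), 84 of 313 in DMSO cells (26.8%, 22.01 to 32.1) and 147 of 457 in GSK126 cells (32.2%, 27.9 to 36.7). Protein-coding summits held it in 55.3%, 36.3% and 31.1%, and all peaks of each list in 54.5%, 17.5% and 26.9%. The DMSO share at lncRNA promoters was thus below that of protein-coding promoters and above that of the list as a whole. A longer word with 1 more T at its start lay at 24.1%, 6.39% and 9.19% of the lncRNA promoter summits. Promoters bound in all 3 lists held the motif at 15 of 23 GSK126 summits (65.2%), those bound in DMSO and GSK126 at 68 of 196 (34.7%), those bound in GSK126 only at 61 of 223 (27.4%) and those bound in DMSO only at 2 of 93 DMSO summits (2.15%, 0.262 to 7.55). Protein-coding promoters of the first 3 patterns held it at 57.2%, 33.8% and 21.1% of summits, in the same order. Of protein-coding summits found in DMSO only, 23 of 147 held it (15.65%). The DMSO-only promoters were CpG-rich in 63.0% of protein-coding cases and 13.4% of lncRNA cases, and the motif words contain CpG. Of the 12828 lncRNA promoters without E2F1 in any list, 360 had a motif word within 100 bp of the start (2.81%).

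The comparison of GSK126 with DMSO asks where E2F1 was found when EZH2 was inhibited. The number of bound lncRNA promoters was 361 in DMSO and 532 in GSK126 cells, a log2 ratio of 0.56 (0.36 to 0.76), with 0.64 at protein-coding promoters (0.59 to 0.69). Both lists shared 264 promoters, which were 73.1% of those bound in DMSO (68.2 to 77.6) and 49.6% of those bound in GSK126 cells (45.3 to 54.0). Protein-coding promoters shared 97.2% and 62.3%, so a larger part of the lncRNA promoters bound in DMSO was missing from the GSK126 list. Where both lists had a summit, the GSK126 fold was above the DMSO fold for 211 of 219 distinct peaks. The median log2 ratio of fold was 0.73 (0.65 to 0.79), and it was also 0.73 at protein-coding promoters (0.72 to 0.74). With fragments at the summit over the lowest background in place of fold, the median log2 ratio was 0.78 (0.73 to 0.83). With only the 1056 strongest peaks of each list, the log2 ratio of bound promoters was 0.18 (-0.56 to 0.92), an interval too wide to tell it from the value with full lists. Library and drug cannot be told apart with 1 library each.

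**Figure D3:**
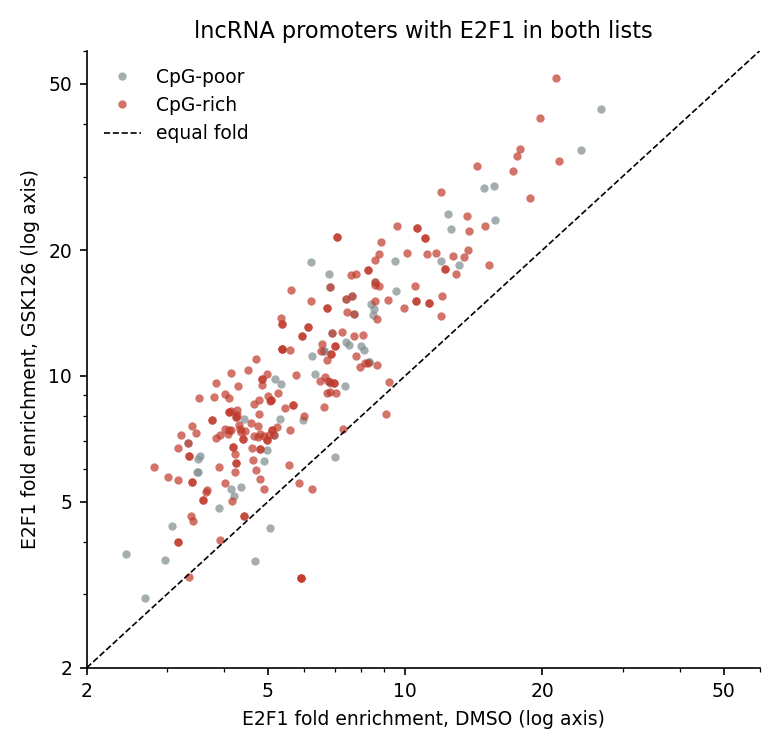
The authors' E2F1 fold enrichment in GSK126 (y axis, log scale) against DMSO cells (x axis, log scale) at the 264 lncRNA promoters with a summit in both lists, 1 point per promoter, in red where CpG-rich and grey where CpG-poor; overlapping promoters that share a peak fall on the same point. Nearly all points lie above the dashed line of equal fold, as 211 of 219 distinct peaks did.

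The 631 bound promoters fell into 4 main patterns. The lists of DMSO and GSK126 cells, but not of untreated cells, shared 238 (1.77%, against 9.92% of all gene starts). A further 264 were bound in GSK126 cells only (1.96%, against 7.39%), and 97 in DMSO cells only (0.721%, against 0.657%). The remaining 26 bound in all 3 lists were described above, 4 were bound in untreated and GSK126 cells and 2 in untreated cells only. The DMSO-only share was thus the pattern of these 3 in which the lncRNA promoters were not below the annotation as a whole, and it was close to the 0.693% of flanking windows with any DMSO summit. DMSO-only promoters were CpG-rich in 13 of 97 cases (13.4%), against 159 of 264 (60.2%) for GSK126 only and 186 of 238 (78.2%) for both. Their DMSO peaks had a median fold of 4.08 and a median of 13 fragments. GSK126-only peaks had a median fold of 5.27 (4.90 to 5.56) and 24 fragments, against 8.98 (8.11 to 9.71) and 42.5 fragments for promoters bound in DMSO as well. Keeping only peaks with −log10 q from 5 upwards left 245 bound promoters in DMSO (1.82%, against 10.7% of all gene starts) and 479 in GSK126 cells (3.56%, against 18.2% of all gene starts), a log2 ratio of 0.97.

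Named promoters bound in GSK126 cells only included NEAT1, the scaffold RNA of paraspeckles. NEAT1 had a fold of 8.83 and 62 fragments, 466 bp upstream of its start. The highest in this pattern was PCAT19, a lncRNA first described in prostate cancer, with a fold of 18.2 and 70 fragments at a CpG-poor promoter. LINC02846 had 9.04. LINC01132 had 9.81 at 306 bp downstream of its start and LINC01655 had 10.4 at 858 bp downstream, each in an intron of the gene. Of these 5 only NEAT1 was CpG-rich and only LINC01132 held the motif at the summit. Of the 264 promoters in this pattern, 162 had no symbol. Named promoters bound in DMSO cells only were led by LINC00526, with a fold of 7.02 and 39 fragments at 976 bp downstream, in an exon. LINC02199 had 5.88, PLCB1-IT1, a transcript from an intron of the phospholipase gene PLCB1, had 5.68, LINC01428 had 5.32, and LUNAR1, a leukaemia-associated lncRNA, had 4.72. All 5 summits lay farther than 200 bp from the start and none held the motif.

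In control cells the share of these lncRNA promoters with H3K27me3 was close to that of the annotation as a whole, and in shE2F1 cells it was lower. In control shRNA cells 2257 promoters overlapped an H3K27me3 peak (16.8%, 16.1 to 17.4), against 17.3% of all gene starts. In shE2F1 cells 2707 did (20.1%, 19.4 to 20.8), against 27.9% of all gene starts. The flanking windows had 15.8% and 18.1%. Most of these peaks were weak, with a median −log10 q of 1.76 in control and 1.65 in shE2F1 cells at lncRNA promoters. In the shE2F1 list the lncRNA promoters were 23.2 points below protein-coding promoters (22.2 to 24.2).

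The knockdown comparison asks where H3K27me3 was found once E2F1 was targeted. H3K27me3 was listed in both conditions at 1794 of 13459 promoters, against 8981 of all 62062 gene starts. It was listed only in shE2F1 cells at 913 (against 13.4% of all gene starts) and only in control cells at 463 (against 2.85% of all gene starts). The net gain was 3.34 points (2.81 to 3.88, normal interval over regions), against 22.05 points at protein-coding promoters, a difference of 18.7 points (17.9 to 19.5). Flanking windows had a net gain of 2.27 points (1.82 to 2.72), and the lncRNA promoters exceeded them by 1.07 points (0.370 to 1.78). The small net gain over all lncRNA promoters depended on the threshold. When only H3K27me3 peaks with −log10 q from 2 upwards were kept, a limit chosen after seeing the data, 759 promoters had H3K27me3 in control (5.64%, against 7.25% of all gene starts) and 721 in shE2F1 cells (5.36%, against 12.5% of all gene starts). It was then found only in shE2F1 cells at 393 promoters (against 8.02% of all gene starts) and only in control cells at 431 (against 2.81% of all gene starts), a net value of -0.28 points (-0.70 to 0.14). With −log10 q from 5 upwards the counts were 16 in control (0.119%, against 0.928% of all gene starts) and 51 in shE2F1 cells (0.379%, against 3.4% of all gene starts). Of these, 36 were found only in shE2F1 cells (against 2.5% of all gene starts) and 1 only in control cells (against 0.0226% of all gene starts).

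LncRNA promoters with E2F1 differed from those without it at each of these thresholds. Among the 631 promoters with an E2F1 summit in any list, 79 had H3K27me3 in control and 194 in shE2F1 cells, with 130 found only in shE2F1 and 15 only in control cells. Among the 12828 without E2F1 the numbers were 2178 and 2513, with 783 and 448. The net gain was 18.2 points with E2F1 (14.8 to 21.7) and 2.61 points without it (2.08 to 3.15), a difference of 15.6 points (12.1 to 19.1). Over all gene starts the net gain was 10.6 points, with 37.9 points at those with E2F1 and 3.70 points at those without it. With −log10 q from 2 upwards the net value was 10.6 points with E2F1 (7.91 to 13.3) and -0.82 points without it (-1.23 to -0.40). With −log10 q from 5 upwards it was 3.17 points (20 promoters found only in shE2F1 cells and none only in control cells) and 0.117 points (16 and 1). CpG-rich promoters had 22.5 points with E2F1 and 5.73 points without it, a difference of 16.8 points (11.7 to 21.9), and CpG-poor ones had 11.65 and 2.42 points, a difference of 9.22 points (3.88 to 14.6). Over all gene starts the CpG-rich ones had 40.4 points with E2F1 and 12.3 points without it, and the CpG-poor ones 22.3 and 2.49 points. E2F1-bound protein-coding promoters had a net gain of 39.1 points, 20.9 points above the E2F1-bound lncRNA promoters (17.3 to 24.5).

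The net gain differed between some of the E2F1 patterns, which also differed in CpG content. CpG-rich promoters were 78.2% of those bound in DMSO and GSK126 cells, 60.2% of GSK126-only and 13.4% of DMSO-only promoters. Over all E2F1-bound lncRNA promoters the net gain was 22.5 points at CpG-rich and 11.65 points at CpG-poor ones. The part of CpG content in the order of the patterns was not tested. Promoters bound in DMSO and GSK126 cells had H3K27me3 only in shE2F1 cells in 60 of 238 cases and only in control cells in none, a net gain of 25.2 points (19.7 to 30.7). GSK126-only promoters had 49 and 7 of 264, a net gain of 15.9 points (10.7 to 21.1), and DMSO-only promoters had 16 and 8 of 97, a net gain of 8.25 points (-1.51 to 18.0). The first exceeded the second by 9.30 points (1.71 to 16.9) and the third by 16.96 points (5.75 to 28.2). The second minus the third was 7.66 points (-3.41 to 18.7), an interval that includes 0. These intervals treat promoters as independent, although the 238 and 264 promoters held only 196 and 223 distinct strongest GSK126 summits. The 26 promoters bound in all 3 lists had 5 and 0, a net gain of 19.2 points (4.08 to 34.4). Over all gene starts H3K27me3 was found only in shE2F1 cells at 13.4% and only in control cells at 2.85%. At all gene starts with E2F1 in any list the counts were 4820 and 92 of 12473. Their net gain was 37.9 points, above that of each pattern given here. E2F1 and H3K27me3 came from different cells and libraries, so these numbers do not show both on the same molecule of DNA.

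**Figure D4:**
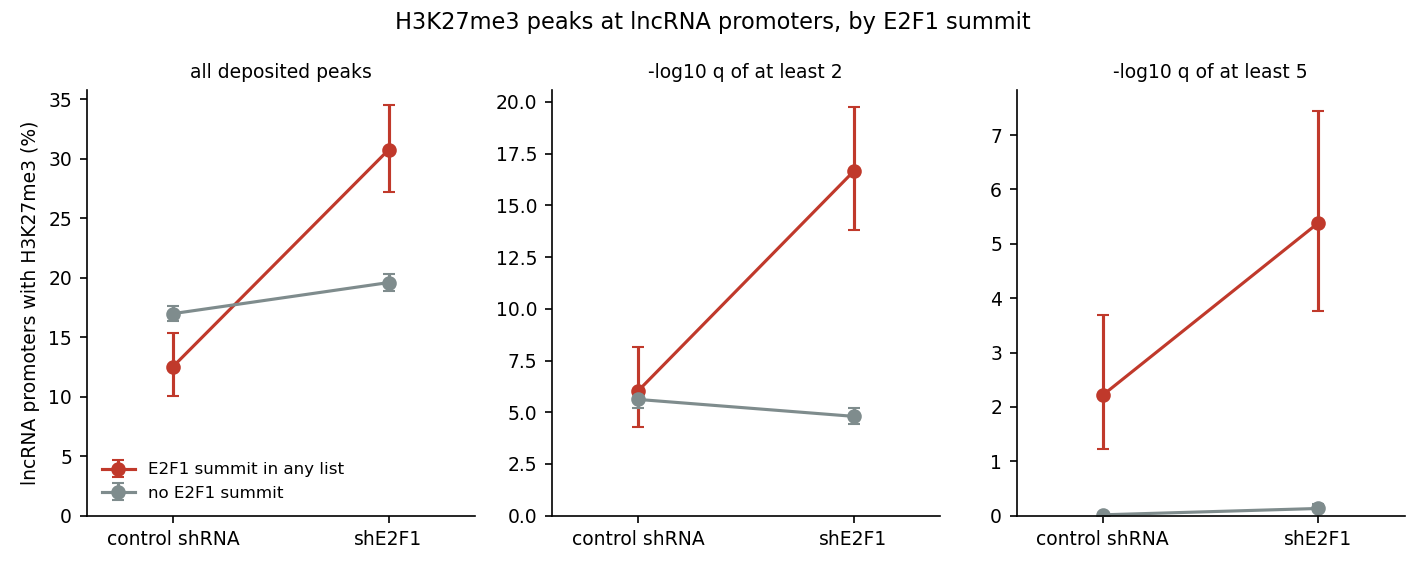
The share of lncRNA promoters (y axis, %, scale differs between panels) that overlap an H3K27me3 peak in control shRNA and shE2F1 cells (x axis), for 631 promoters with an E2F1 summit in any list (red) and 12828 without (grey), using all deposited peaks (left), those with −log10 q from 2 (middle) or 5 (right) upwards, with 95% exact intervals. The net value with E2F1 is 18.2, 10.6 and 3.17 points, and without it 2.61, -0.82 and 0.117 points.

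The strongest H3K27me3 peak found at a named lncRNA promoter only in shE2F1 cells was at MIR210HG, the host of the hypoxia-induced microRNA miR-210. Its fold was 7.44 with −log10 q at 14.8, and it spanned 793 bp that included the GSK126 summit of E2F1. The E2F1 fold there was 8.59 in DMSO and 18.97 in GSK126 cells. LINC00663 followed with a −log10 q of 10.6, and its E2F1 peak was listed in GSK126 cells only, with a fold of 5.15. CASTOR3P, a copy of the arginine sensor genes (−log10 q of 6.87), HIF1A-AS3, on the strand opposite to the hypoxia factor gene HIF1A (6.49), and LINC02427 (6.19) had no E2F1 summit in any list. How reads shared by CASTOR3P and the genes it copies were treated is not given in the sources used here. Other promoters with E2F1 in DMSO and GSK126 cells and H3K27me3 only in shE2F1 cells were LINC01962 (−log10 q of 5.95), RENO1 (5.49), ZNF767P (4.22) and MIRLET7A1HG (3.83), the last being the host of let-7a-1. MIRLET7A1HG had E2F1 folds of 14.4 in DMSO and 31.8 in GSK126 cells, the highest of these 5. In all, 65 promoters had that combination, 35 of them without a symbol.

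Peaks found only in control cells had a median fold of 3.09 (463 promoters, 3.05 to 3.13), and those found only in shE2F1 cells had one of 2.90 (913 promoters, 2.88 to 2.93). Among named promoters with H3K27me3 only in control cells, LINCMD1, a lncRNA of muscle differentiation, led with −log10 q at 2.945 and a fold of 3.87, followed by ANK2-AS1 (2.73), A2MP1 (2.58), LINC00690 (2.53) and CISTR (2.41). All 5 promoters were CpG-poor and held no E2F1 summit. Of all 463 control-only promoters, 435 were CpG-poor and 448 held no E2F1 summit. Over the whole set of 13459 these numbers were 12344 and 12828. Among named promoters with H3K27me3 in both conditions, SNHG16, a snoRNA host, ranked first by the lower of its −log10 q values, with folds of 12.05 in control and 10.97 in shE2F1 cells. GTF2IRD1P1 had folds of 7.06 and 13.2, LINC01311 had 6.06 and 10.5, LINC01347 had 6.35 and 9.225, and GUSBP11 had 5.81 and 6.86. All 5 were CpG-rich, and 4 of them also held an E2F1 summit in GSK126 cells, LINC01347 being the exception. GTF2IRD1P1 and GUSBP11 are copies of protein-coding genes, and how reads that fit both copies were treated is not given in the sources used here, so their values are uncertain.

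Of a fixed list of 64 widely studied lncRNAs, 43 met the rule and 21 did not. An E2F1 summit lay at 18 of the 43, against 4.69% of the whole set and 20.1% of all gene starts. By list there were 2 in untreated (against 2.13% of all gene starts), 11 in DMSO (against 12.6%) and 16 in GSK126 cells (against 19.4%). CpG-rich promoters held it in 16 of 22 cases, against 382 of 1115 in the whole set and 10738 of all 16857 CpG-rich gene starts. The 2 CpG-poor ones with E2F1 were MIR193BHG and JPX. MIR17HG, the host of the proliferation-linked miR-17-92 cluster, had folds of 13.7 in DMSO and 20.0 in GSK126 cells, and H3K27me3 only in shE2F1 cells with a fold of 3.68. PVT1, the neighbour of MYC, had E2F1 folds of 5.27 and 9.09, and its H3K27me3 fold was 3.33 in control and 4.935 in shE2F1 cells. NORAD, which binds Pumilio proteins, had E2F1 in GSK126 cells only (fold 6.06) and H3K27me3 only in shE2F1 cells (fold 3.385). DANCR and SNHG7 had the same combination, with E2F1 folds of 5.185 and 2.61. KCNQ1OT1, the imprinted antisense transcript of KCNQ1, had E2F1 in GSK126 cells only (fold 4.32) and no H3K27me3 peak.

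H3K27me3 was found only in shE2F1 cells at 8 of the 43, against 13.4% of all gene starts, and 7 of these held E2F1, SNHG12 being the exception. It was found in both conditions at 7 (against 8981 of all 62062 gene starts), among them NEAT1 (folds of 2.78 and 3.36) and CASC15 (3.725 and 2.80). Only in control cells it was found at LINC00511 (fold 3.21), against 2.85% of all gene starts. No peak of either kind lay at 19 of the 43, among them H19, MEG3, UCA1 and CYTOR. Over the whole set 9867 of 13459 lncRNA promoters held no peak in any of the 5 lists, and 3592 held at least 1.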

How the data were processed

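ChIP-seq of MDA-MB-231 cells gave 5 peak lists, 1 library per condition; an input sample was not analysed here. By the submitters' processing notes and methods, the authors trimmed reads with cutadapt 4.5, aligned them to GRCh38 with Bowtie2 2.5.2 and called peaks per library with MACS2 2.2.9.1, narrow for E2F1 and broad for H3K27me3. Whether the input served as control is not given in the sources used here. Each deposited peak carries a fold enrichment, which is a ratio to the local background, the −log10 of its p-value and the −log10 of its q-value. The deposited score is the latter times 10 as a whole number and was not used, and the deposited summit offset placed the E2F1 summits.

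Regions came from GENCODE 44 and hg38. A promoter was E2F1-bound when it held a summit and H3K27me3-positive when a peak overlapped it by at least 1 bp. Fragments at a summit were solved from fold and p-value. Shares carry exact Clopper-Pearson intervals, differences Newcombe or normal intervals and medians order-statistic intervals. The log2 ratio of bound promoters carries an exact binomial interval on the GSK126 share of the calls in both lists, which ignores their pairing. All intervals are at 95%. They treat promoters as independent, and overlapping promoters are not. The code was tested on simulated data. Named genes were those with a symbol, 1 per overlapping cluster, ranked by geometric mean E2F1 fold within the 3-list pattern and by −log10 q within the others, plus a list of widely studied lncRNAs. The values of 1 gene and the sequence of 1 promoter that these rules select are not reported here. Members and lists were chosen with earlier results of these data known. Python 3.11.15, SciPy 1.17.1 and pysam 0.24.0 were used.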

Additional observations from a re-analysis of the deposited data

How the results depend on the processing

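No paired analysis was possible because each condition was 1 library. The 16 results were recomputed under 15 alternatives, 3 of them chosen after seeing the data, and 80 of 144 values stayed within the 95% interval of the value reported, 63 left it and 1 changed sign. That 1 was the H3K27me3 net gain over all lncRNA promoters, at -0.28 points with H3K27me3 peaks of a −log10 q of at least 2 (chosen later), where the H3K27me3 shares were 5.64% in control and 5.36% in shE2F1 cells, the net gain with minus without E2F1 was 11.4 points, and protein-coding minus lncRNA 13.57 points. Values below are for untreated, DMSO and GSK126 cells, in that order, where a list is given.

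With a −log10 q of at least 5 in every list, the E2F1 share was 1.82% in DMSO and 3.56% in GSK126 cells, its difference from protein-coding promoters 4.16, 22.7 and 38.2 points, the log2 ratio of bound promoters 0.97, the DMSO motif share 38.35%, the H3K27me3 shares 0.119% and 0.379%, the net gain 0.26 points, with minus without E2F1 3.85 points and protein-coding minus lncRNA 5.55 points. With 500 bp to either side of the start, the E2F1 share was 2.00% in DMSO and 3.28% in GSK126 cells, the difference 4.26, 22 and 34.5 points and the H3K27me3 shares 13.3% and 16.4%. With 1 promoter per overlapping cluster, the GSK126 share was 3.47%, the difference 4.305, 24.4 and 38.6 points and the net gain difference from protein-coding promoters 17.8 points. Counting any overlap of an E2F1 peak gave differences of 26.55 points in DMSO and 42.1 points in GSK126 cells.

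With the 1056 strongest peaks of each E2F1 list, the share was 0.23% in DMSO and 0.26% in GSK126 cells, the differences 4.85 points in both and the log2 ratio 0.18 (-0.56 to 0.92), an interval that includes both 0 and the value with full lists. H3K27me3 overlap of at least 200 bp gave shares of 15.2% and 18.6%, and peak midpoints gave 11.5% and 13.2% with a net gain of 1.69 points. A longer motif with 1 more T at its start gave motif shares of 24.1%, 6.39% and 9.19%, and a 50-bp window 21.7% in DMSO and 26.7% in GSK126 cells. CpG-rich promoters only (chosen later) gave E2F1 shares of 2.15%, 19.6% and 33.1%, differences of 5.93 points in untreated and 35.55 points in GSK126 cells, a DMSO motif share of 32.8%, H3K27me3 shares of 15.5% and 27%, a net gain of 11.5 points and a difference from protein-coding promoters of 21.6 points. Any transcript start of the gene (chosen later) gave E2F1 shares of 3.22% in DMSO and 4.495% in GSK126 cells, differences of 5.57, 30.3 and 47.0 points, H3K27me3 shares of 18.5% and 22.1% and a net gain difference of 20.55 points. No value left its interval with members farther than 10 kb, or with the TSSs of every transcript of protein-coding genes. The depth of all 5 libraries is unknown, and its part in the differences between lists was not tested.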
